A study of Mus musculus with 3 samples.

Results

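Neutrophils that carried transcripts of inflammatory mediators were examined in cells released from mouse intervertebral discs. The mice were untreated shh-cre:R26R-tdTomato animals at postnatal day 30, in which Cre recombinase is driven from the Shh locus and switches on a red fluorescent reporter. Discs of the lumbar, thoracic and caudal spine were freed by cuts through the bony endplates, minced and digested with collagenase, and sorting then enriched the tdTomato-positive cells. The 3 libraries, prepared by droplet capture with 3' counting (10x Chromium), were replicates of 1 group. Each was a pool of cells from litter-matched mice, so a difference between libraries was also one between pools, and may be one between sequencing batches.

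The cells were chosen by measured values. A barcode was kept when it had 500 genes or more and no more than 15% of its UMIs (unique molecular identifiers, the unit of counting) from mitochondrial genes, and 890 of the 26882 kept met the rule (3.31%). In these cells S100a8 plus S100a9 made up at least 2% of UMIs, the secondary granule genes Camp, Ngp and Ltf together made up under 1%, and at least 3 of the 5 genes Cxcl2, Il1b, G0s2, Acod1 and Trem1 had a UMI. Library 1 held 277 such cells of 5732 kept barcodes, library 2 held 306 of 10786, and library 3 held 307 of 10364. The values of these 10 genes in the chosen cells are therefore a description of the choice, with no test. All other genes were left out of the rule.

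Neutrophils are made in the bone marrow and pack their granules in a set order, with primary granule enzymes such as myeloperoxidase first, secondary granule proteins next and gelatinase last, while granule transcription largely stops before the cell matures. A mature neutrophil that meets microbial products or injury signals activates NF-κB and switches on chemokines, cytokines and, soon after, the inhibitors that end the response. Cxcl2 is a chemokine that attracts further neutrophils through Cxcr2, Il1b is the precursor of interleukin-1β, Acod1 makes itaconate from a citric acid cycle intermediate, Trem1 is a receptor that amplifies Toll-like receptor signalling, and G0s2 is an inhibitor of adipose triglyceride lipase.

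The libraries held 64695292, 145925353 and 137188648 UMIs, on 7430, 11767 and 11032 barcodes in libraries 1, 2 and 3. The kept barcodes had medians of 6592, 8630.5 and 8679.5 UMIs. The activated cells were shallower, with medians of 2358, 3454 and 3235 UMIs. Any 2 libraries shared 24 to 224 of the deposited barcodes, and 1, 0 and 5 activated cells had a shared barcode in libraries 1, 2 and 3.

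The markers bore out the label neutrophil. At least 5 of 10 neutrophil genes outside the rule (Csf3r, Cxcr2, Ly6g, Mmp8, Mmp9, Retnlg, Wfdc21, Il1r2, Hdc, Lcn2) were detected in 259 of 277 activated cells in library 1, 302 of 306 in library 2 and 300 of 307 in library 3. Retnlg, a resistin-like secreted protein of neutrophils, stood at 17563, 18760 and 18612 counts per 1000000 UMIs (CPM) in libraries 1, 2 and 3. Csf3r, the receptor for the neutrophil growth factor G-CSF, had a UMI in 79.1%, 89.5% and 89.9% of the cells. Not every activated cell was free of earlier-stage transcripts, because primary granule genes (Mpo, Elane, Prtn3, Ctsg and Ms4a3) made up at least 0.1% of UMIs in 56, 9 and 17 of them, and 20, 40 and 35 had over 2000 genes. Some of these cells were deep: the 199, 254 and 247 activated cells that passed the restrictions set out below held 513373 of 1155182, 862649 of 1668683 and 795609 of 1750373 UMIs, so the remaining cells weighed heavily in the sums over all activated cells.

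Markers of other cell types were present in the summed activated cells. All 12 genes of the monocyte or macrophage list had UMIs in each library, with summed levels of 96.1, 277 and 647 CPM, and 1, 12 and 17 cells held at least 3 of these genes. The B lineage list summed to 264, 729 and 666 CPM, with Vpreb1, Cd79a and Ebf1 detected in each library. Erythroid genes, mostly haemoglobin, summed to 3553, 13187 and 23190 CPM. Chondrocyte genes reached 1814 and 874 CPM in libraries 1 and 2 and 3.43 CPM in library 3. The part of these transcripts in the results below was not tested by itself, and a comparison of restricted cells follows in which the monocyte, macrophage and B lineage levels are lower.

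The 5 genes that chose the cells differed in level between libraries. Cxcl2 stood at 13686 CPM in activated cells of library 1, 4171 in library 2 and 3632 in library 3. It had a UMI in 96.8%, 91.8% and 94.8% of them. Free RNA can give UMIs in droplets of cells that do not express a gene, so B lineage cells were counted in the same way: 5.67%, 1.62% and 1.14% of them had a Cxcl2 UMI, at median depths of 2805, 3629 and 2775.5 UMIs.

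Il1b stood at 2233, 1068 and 1133 CPM in activated cells and was detected in 79.8%, 72.2% and 75.9% of them, against 0.810%, 0.453% and 0.234% of B lineage cells. Acod1 varied most between the libraries, with 1183, 300 and 107 CPM and a UMI in 85.6%, 42.8% and 31.3% of activated cells, against 0.304%, 0.0755% and 0.0586% of B lineage cells. G0s2 stood at 3982, 1349 and 524 CPM, and 88.8%, 79.7% and 72.0% of activated cells had a UMI, against 7.29%, 2.19% and 1.44% of B lineage cells. Trem1 stood at 948, 455 and 251 CPM, with a UMI in 91.0%, 82.0% and 73.0% of activated cells, against 2.53%, 1.21% and 1.17% of B lineage cells. All 5 genes were highest in library 1. G0s2 and Trem1 were also detected in most or many immature neutrophils, with Camp, Ngp and Ltf at 1% of UMIs or more: G0s2 in 92.5%, 79.3% and 74.1% and Trem1 in 88.9%, 53.6% and 46.0% of them.

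**Figure D1:**
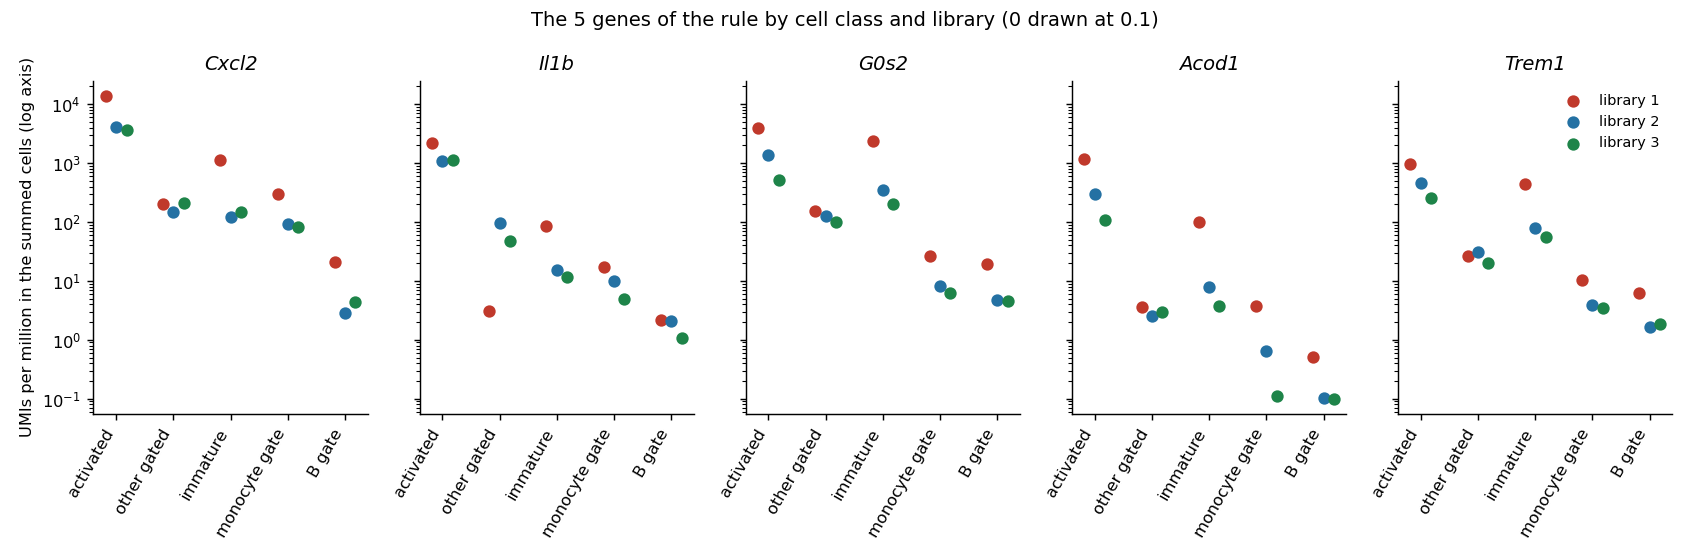
Level of each of the 5 genes that chose the cells, in CPM on a log axis, in the summed UMIs of each cell class and library. Each point is 1 library, and in activated neutrophils Cxcl2 stands at 13686, 4171 and 3632 CPM in libraries 1, 2 and 3.

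The number of the 5 genes detected per cell was also highest in library 1. There, 155 of the 277 activated cells had all 5, 83 had 4 and 39 had 3. In library 2, 57 cells had all 5, 96 had 4 and 153 had 3, and in library 3 the counts were 22, 100 and 185. Just outside the limit, 47, 191 and 209 cells of the same S100 and granule gates had 2 of the 5. At the granule limit, 45, 28 and 33 activated cells had 0.5% to 1% of UMIs from Camp, Ngp and Ltf, while 67, 44 and 37 cells that met the other conditions had 1% to 2%. At the S100 limit, 8, 2 and 12 activated cells had 2% to 3%, while 7, 7 and 2 cells that met the other conditions had 1% to 2%.

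Similar numbers of activated cells came from each library, but their share of the gated cells was highest in library 1. Activated cells were 277 of 375 cells that passed the S100 and granule gates in library 1 (73.9%, 95% exact Clopper-Pearson interval 69.1 to 78.2), 306 of 719 in library 2 (42.6%, 38.9 to 46.3) and 307 of 776 in library 3 (39.6%, 36.1 to 43.1). The mean was 52.0% ± 19.0 (SD, n = 3). With at least 1000 genes per barcode the shares were 35.4%, 32.9% and 26.0%, closer to each other. The intervals cover counting error only. By contrast, at least 3 of the 5 genes were found in 2 of 988, 3 of 2649 and 1 of 3414 B lineage cells, and in 3.44%, 0.631% and 0.458% of cells of the monocyte gate, at median depths of 11845, 10146 and 12363 UMIs. Among immature neutrophils, whose median depths were 9958, 13071 and 12862 UMIs, the share was 65.4%, 17.0% and 16.2%.

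The other cells of the same gates were a mixture. Of the 98, 413 and 469 gated cells with 0 to 2 of the genes, 36, 284 and 302 had at least 5 of the 10 neutrophil genes. In 84, 126 and 229 of them at least 0.1% of UMIs came from the primary granule genes, and 13, 93 and 63 held at least 3 monocyte or macrophage genes. Their median depths were 22745.5, 5460 and 9127 UMIs. Summed with Serpinb1a, the primary granule genes stood at 13808, 5973 and 10851 CPM in activated cells and at 42302, 30772 and 49766 CPM in these other gated cells. A comparison over the whole gates therefore set activated neutrophils against a mixture that carried more primary granule RNA.

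**Figure D2:**
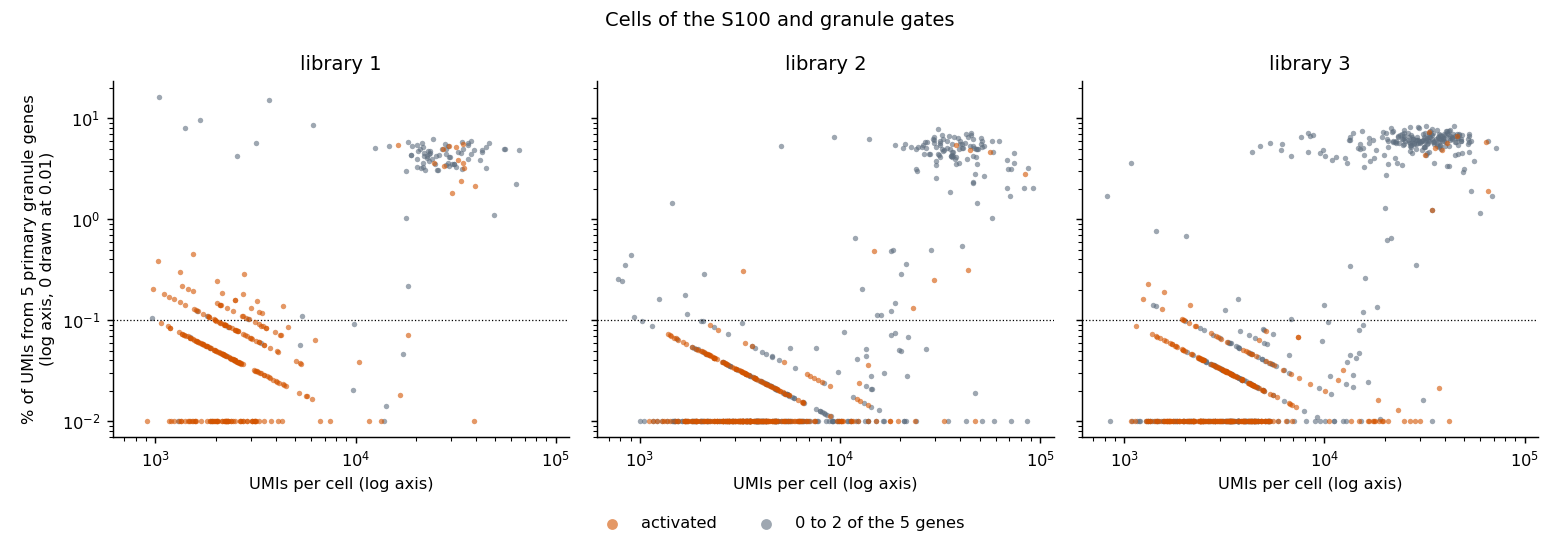
UMIs per cell against the percentage of UMIs from 5 primary granule genes (both log axes, 0 drawn at 0.01) for the cells of the S100 and granule gates, with 1 panel per library. Activated cells (277, 306 and 307) lie mostly at low depth and under the 0.1% line, while many of the 98, 413 and 469 other gated cells lie at high depth and above 0.1%.

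Over the whole gates, the UMIs of each class in each library were added up and compared with edgeR's quasi-likelihood test, with the library as a block and Benjamini-Hochberg adjustment over 9394 genes. Activated cells had 2320 genes higher (24.7% of genes tested) and 1992 lower (21.2%) at an adjusted p under 0.05. Together these were 4312, against 1973 without library 2, 2360 without library 3, 2714 without the block, 2268 with comparison cells that had 0 of the 5 genes and 1003 with cells thinned to 1000 UMIs. Mpo, the myeloperoxidase of primary granules, stood at 2510, 937 and 2043 CPM in activated cells and at 8102, 4922 and 9262 CPM in the other gated cells (log2 fold change -1.80 ± 0.19, SE, adjusted p = 0.0041), with no overlap. All 6 primary granule genes and 15 of 18 proliferation genes were lower in activated cells. When at least 4 of the 5 marker genes were required of an activated cell, the calls of Mpo, Elane, Prtn3, Ctsg and Ms4a3 were lost, with an adjusted p of 0.0612 for Mpo and 0.0808 for Ms4a3. Il1r2, the decoy receptor that binds interleukin-1, stood at 809, 401 and 229 CPM in activated cells against 12.02, 30.5 and 32.8 CPM (log2 fold change 4.32 ± 0.68, adjusted p = 0.00676). Nlrp3, the inflammasome sensor, stood at 752, 217 and 126 CPM against 8.46, 16.8 and 14.1 CPM (log2 fold change 4.53 ± 0.70, adjusted p = 0.0065). Neither gene's groups overlapped.

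Several gene groups were higher in activated cells in this comparison. Of the NF-κB list 17 of 21 tested members were higher and 1 lower (median log2 fold change 2.15, against -0.05 over all genes), of the immediate early list 20 of 22 were higher, and of the interferon response list 25 of 28. All 10 neutrophil identity genes and 17 of 20 secondary and tertiary granule genes outside the rule were also higher, as were 5 of 8 B lineage genes. So maturity and activation cannot be told apart here. Among the genes with the largest folds, the matrix-associated Ccn2 stood at 145, 108 and 2.86 CPM in activated cells against 7.12, 1.09 and 0.506 CPM, and the bone-resorbing protease gene Ctsk at 2.60, 8.99 and 311 CPM against 0.445, 2.03 and 3.54 CPM. Both groups overlapped, and the high values came from library 3 alone for Ctsk and from libraries 1 and 2 for Ccn2. The level of Ctsk in library 3 stood beside the highest monocyte or macrophage level, 647 CPM, and the levels of Ccn2 in libraries 1 and 2 beside the chondrocyte levels of 1814 and 874 CPM; their part in these results was not tested.

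To narrow both groups to cells with neutrophil genes and little primary granule RNA, they were restricted after the mixture had been seen. Cells were kept if they had at least 5 of the 10 neutrophil genes, under 0.1% of UMIs from the 5 primary granule genes, under 3 monocyte or macrophage genes, under 3 B lineage genes and at most 2000 genes. This left 199, 254 and 247 activated cells and 6, 204 and 189 marker-poor cells, with 0 to 2 of the 5 genes. Of the marker-poor cells of libraries 2 and 3, 129 and 124 had 2 of the genes, 61 and 56 had 1, and 14 and 9 had none. Cxcl2 had a UMI in 31.9% and 58.2% of them. The contrast was therefore largely one of 3 or more against 2 detected genes, and not of cells with and without the markers. The shares of activated cells were 97.1% (95% exact interval 93.7 to 98.9), 55.5% (50.8 to 60.1) and 56.7% (51.9 to 61.4) in libraries 1, 2 and 3. With every cell thinned to 1000 UMIs the shares were 92.2%, 29.7% and 26.2%, still highest in library 1. Only libraries 2 and 3 held at least 20 cells of both kinds and entered the test, so library 1 gives no contrast here and the p-values rest on the spread between 2 pools.

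The restricted groups were close in depth. Median depths were 3229.5 and 3017 UMIs in activated cells and 3570.5 and 3407 in marker-poor cells of libraries 2 and 3. The monocyte or macrophage list summed to 77.7 and 91.8 CPM in activated cells (11 and 9 of 12 genes with a UMI) and to 77.6 and 61.4 CPM in marker-poor cells (9 and 9 of 12), most of it Csf1r. Ccr2 was at 1.16 and 1.26 CPM in activated cells. The B lineage list summed to 37.1 and 42.7 CPM in activated cells against 14.5 and 34.5 CPM. Nucleus pulposus genes summed to 4.64 and 0 CPM in activated cells against 63.2 and 0 CPM in marker-poor cells. Haemoglobin-dominated erythroid RNA stood at 6968 and 21641 CPM in activated cells and 33379 and 25135 CPM in marker-poor cells. The median share of UMIs from Camp, Ngp and Ltf was 0.0952% and 0.0818% in activated cells and 0.131% and 0.150% in marker-poor cells. The part of these differences in the results was not tested.

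Against restricted marker-poor neutrophils, the activated cells had 19 of 4342 genes higher (0.438%) and 1 lower (0.023%), by edgeR's quasi-likelihood test at an adjusted p under 0.05. At an unadjusted p under 0.05 there were 443. The higher genes included inhibitors of NF-κB signalling, receptors for bacterial products and chemoattractants, a chemokine and stress-response regulators. The groups of each of the 20 genes did not overlap, but with 2 libraries on each side this adds little to the calls. The share without overlap over all genes is not given. The median log2 fold change of all genes was -0.01. The genes of the rule stayed in the fit and in the adjustment, although the choice of cells had fixed the difference in the marker genes. With the rule genes left out of the totals, 5 genes were called, all higher, and 11 of the 14 named calls were lost. The counts of 19 higher and 1 lower are therefore not independent of the choice of cells.

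Among receptors, Cd14, the co-receptor that hands lipopolysaccharide to Toll-like receptor 4, stood at 435 and 127 CPM in activated cells of libraries 2 and 3, against 44.7 and 30.0 CPM in marker-poor cells. Its log2 fold change was 2.87 ± 0.24 (SE), with an adjusted p of 0.0042. Ccrl2, an atypical receptor that binds the chemoattractant chemerin, stood at 259 and 156 CPM against 40.8 and 30.0 CPM (log2 fold change 2.53 ± 0.17, adjusted p = 0.0029). Hcar2, the receptor for niacin and the ketone body β-hydroxybutyrate, stood at 635 and 583 CPM against 146 and 295 CPM (1.49 ± 0.23, adjusted p = 0.0498). These 3 were high in both libraries, and each was the called member of its list, with 1 of 19 pattern recognition and activating receptors, 1 of 22 chemoattractant and cytokine receptors and 1 of 14 genes of lipid mediators and itaconate. Cxcr2, the receptor for Cxcl2 itself, stood at 887 and 667 CPM in activated cells and 929 and 676 CPM in marker-poor cells (log2 fold change -0.07 ± 0.10, adjusted p = 0.882), and those groups overlapped. Tlr4 stood at 31.3 and 16.3 CPM against 38.2 and 25.5 CPM (adjusted p = 0.664). The decoy receptor Il1r2 stood at 622 and 395 CPM against 197 and 250 CPM (1.15 ± 0.21) and missed the threshold, with an adjusted p of 0.0723.

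Among secreted mediators outside the rule, Ccl3, a chemokine that draws in monocytes and neutrophils, stood at 155 and 233 CPM in activated cells and 31.6 and 89.9 CPM in marker-poor cells (log2 fold change 1.69 ± 0.22, adjusted p = 0.0211). Its neighbour in function, Ccl4, stood at 255 and 109 CPM against 17.1 and 43.4 CPM (2.58 ± 0.44, adjusted p = 0.0577). Tnf, the tumour necrosis factor gene, stood at 165 and 72.9 CPM against 26.3 and 36.0 CPM (1.91 ± 0.34, adjusted p = 0.0631). The groups did not overlap for Ccl4 or Tnf, but both genes missed the threshold. Il1rn, the secreted antagonist of the interleukin-1 receptor, stood at 137 and 102 CPM against 114 and 108 CPM (adjusted p = 0.909). None of 9 tested cytokine genes was called and 8 had a positive log2 fold change (median 0.45).

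Of the NF-κB list, 2 of 17 tested members were higher and none lower, with 15 positive log2 fold changes (median 0.66, against -0.01 over all genes). Over the alternatives the list had 0 to 8 called higher, with 0 of 17 when the rule genes were left out of the totals, 0 of 18 without the limit on genes per cell, 1 of 17 without the library block and 8 of 22 without a filter on low counts. Nfkbia encodes IκBα, which holds NF-κB in the cytoplasm and is itself made on NF-κB activation. It stood at 1452 and 1023 CPM in activated cells against 291 and 409 CPM in marker-poor cells (log2 fold change 1.79 ± 0.22, adjusted p = 0.0173). Tnfaip3 encodes A20, an enzyme that trims ubiquitin from the signalling complex and damps it. It stood at 102 and 56.6 CPM against 22.4 and 16.5 CPM (2.01 ± 0.24, adjusted p = 0.0173). Sod2, the mitochondrial superoxide dismutase gene and an NF-κB target, stood at 59.1 and 51.5 CPM against 14.5 and 19.5 CPM, with an adjusted p of 0.0577.

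The immediate early list had 2 of 17 tested members higher, and the transcription factor list 2 of 20. Atf3, a stress-induced repressor, stood at 208 and 167 CPM in activated cells against 42.1 and 47.9 CPM (log2 fold change 2.04 ± 0.18, adjusted p = 0.00455). Ier3, a survival-related early response gene, stood at 582 and 622 CPM against 371 and 382 CPM (0.65 ± 0.10, adjusted p = 0.0352). Fos, the classical gene of the same list, stood at 3238 and 3815 CPM against 3210 and 2993 CPM (0.15 ± 0.11, adjusted p = 0.684). Cebpb, a factor of emergency granulopoiesis, stood at 2739 and 1957 CPM against 1648 and 1182 CPM (0.70 ± 0.10, adjusted p = 0.0281). Nfil3, a basic leucine zipper repressor, stood at 112 and 123 CPM against 48.7 and 47.9 CPM (1.25 ± 0.17, adjusted p = 0.0277). Cebpd differed by 0.01 ± 0.10.

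Among feedback genes, Gadd45b, a stress sensor of the MAP kinase pathway, stood at 518 and 258 CPM in activated cells against 105 and 108 CPM (log2 fold change 1.82 ± 0.22, adjusted p = 0.0173). It was the called member of 16 tested in its list. Zfp36, whose protein marks cytokine mRNAs for decay, stood at 1960 and 1306 CPM against 2130 and 1156 CPM (adjusted p = 0.999). Pde4b, the phosphodiesterase that breaks down cyclic AMP, stood at 90.4 and 70.4 CPM against 27.6 and 25.5 CPM (1.57 ± 0.22, adjusted p = 0.0281). Of the interferon list 1 of 25 was higher: Ifitm1, a membrane protein that restricts virus entry, stood at 1185 and 1574 CPM against 687 and 640 CPM (1.02 ± 0.13, adjusted p = 0.0211). The list's median was 0.06, and Isg15, the ubiquitin-like interferon-induced protein, differed by 0.26 ± 0.16.

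The 1 gene lower in activated cells was Cd177, a surface glycoprotein of neutrophils stored with secondary granules. It stood at 242 and 284 CPM in activated cells against 413 and 418 CPM in marker-poor cells (log2 fold change -0.69 ± 0.10, adjusted p = 0.0334). Its list of 20 secondary and tertiary granule genes outside the rule had 3 positive log2 fold changes and a median of -0.25. The rule's limit on Camp, Ngp and Ltf held for both groups alike. The restriction also held both groups under 0.1% of UMIs from the primary granule genes, so the result of that list was largely set in advance. No member of the lists of glycolysis and hypoxia response (22 tested, median 0.02), survival and apoptosis (15, median -0.01), NADPH oxidase and redox (17, median 0.06), adhesion (18, median 0.07), heat shock (6, median 0.27), primary granules (5, median -0.09) or proliferation (7, median 0.24) was called.

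A further 6 called genes lay outside the rule for named genes and were chosen after their values were seen. Wfdc17, a whey acidic protein-type secreted protein, stood at 829 and 1315 CPM in activated cells against 367 and 532 CPM (log2 fold change 1.22 ± 0.10, adjusted p = 0.0042). Srgn, the proteoglycan core of granules, stood at 3097 and 3328 CPM against 1670 and 2013 CPM (0.78 ± 0.10, adjusted p = 0.0266). The log2 fold change was 1.21 for Lmnb1, the nuclear lamin B1, 0.99 for Phlda1, a pleckstrin homology-like protein, 0.95 for Osgin1, induced by oxidative stress, and 0.64 for Pnrc1, a nuclear receptor coactivator.

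**Figure D3:**
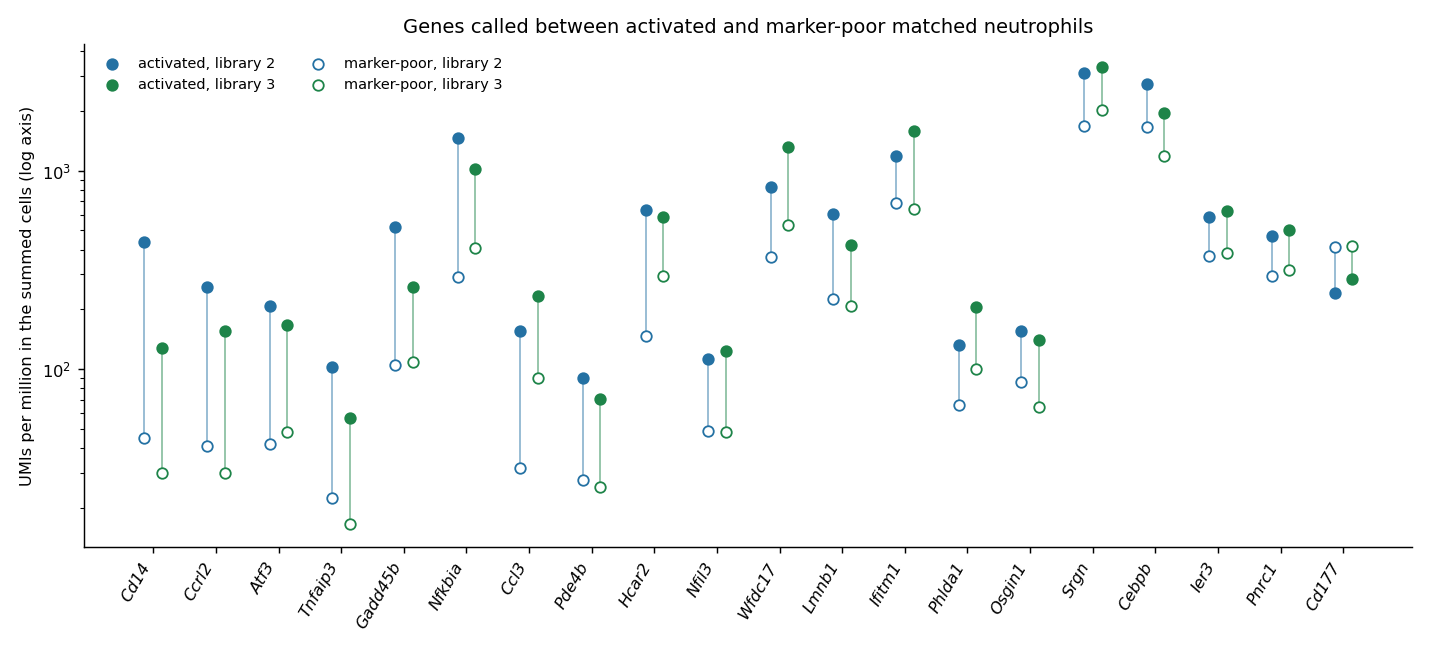
Level in CPM (log axis) of the 20 called genes in activated (filled) and marker-poor (open) neutrophils of the restricted comparison, for libraries 2 and 3. The genes run from Cd14 (435 and 127 against 44.7 and 30.0 CPM) to the single lower gene Cd177 (242 and 284 against 413 and 418 CPM).

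The calls of this comparison depended on the fit, and between 3 and 149 genes were called under its alternatives. In some of them the adjusted p-values were far smaller than so few pools can bear, so tallies over the alternatives overstate how well a call holds. Ccrl2 was called in all 14 alternatives, Cd14 in 13 of 14, and Atf3 and Nfkbia in 12 of 14. Tnfaip3 was called in 9 of the 13 in which it was tested, while Cd177 was called in 6 of 14 and Cebpb in 7 of 14. Without the limit of 2000 genes per cell, 18 genes were called, and 2 of the 17 higher ones were among the 19 reported. Without the library block 3 genes were called.

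Because inhibitors and targets of NF-κB were among the called genes, their promoters were read. The 250 bases before the start of the rule gene Cxcl2 and of 3 called genes are shown 5′ to 3′ on the gene's strand, from RefSeq on build GRCm38.p6, with matches to the consensus NF-κB motif in capitals. In Tnfaip3 the capitals TGACTCA mark a match to the AP-1 motif TGANTCA.
Cxcl2, chr5:90903649-90903898, plus strand: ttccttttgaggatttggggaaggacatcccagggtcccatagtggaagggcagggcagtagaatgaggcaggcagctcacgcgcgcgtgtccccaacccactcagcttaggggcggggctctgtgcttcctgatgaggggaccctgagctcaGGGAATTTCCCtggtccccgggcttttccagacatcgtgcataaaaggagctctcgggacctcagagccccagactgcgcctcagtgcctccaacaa
Nfkbia, chr12:55492648-55492897, minus strand: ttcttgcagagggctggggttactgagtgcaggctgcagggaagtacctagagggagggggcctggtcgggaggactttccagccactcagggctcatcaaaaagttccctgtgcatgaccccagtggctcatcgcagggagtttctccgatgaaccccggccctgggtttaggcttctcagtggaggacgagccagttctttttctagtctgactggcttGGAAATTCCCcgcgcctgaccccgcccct
Tnfaip3, chr10:19015411-19015660, minus strand: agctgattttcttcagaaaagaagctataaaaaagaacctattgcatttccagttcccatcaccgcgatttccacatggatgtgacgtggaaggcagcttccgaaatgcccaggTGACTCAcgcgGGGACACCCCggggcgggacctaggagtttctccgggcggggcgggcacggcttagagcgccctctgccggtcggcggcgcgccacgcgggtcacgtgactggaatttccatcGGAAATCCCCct
Ccrl2, chr9:111057519-111057768, minus strand: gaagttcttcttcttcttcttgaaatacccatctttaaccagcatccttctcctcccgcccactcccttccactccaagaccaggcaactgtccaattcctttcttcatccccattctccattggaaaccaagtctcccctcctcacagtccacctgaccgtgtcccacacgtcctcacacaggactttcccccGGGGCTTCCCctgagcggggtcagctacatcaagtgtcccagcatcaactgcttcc

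The Cxcl2 match spans 97 to 87 bases before the start and holds 2 overlapping matches, 1 on each strand. The Nfkbia match lies 29 to 20 bases before the start, the Ccrl2 match 56 to 47 bases before 1 of its 3 listed starts, and the Tnfaip3 matches 125 to 116 and 12 to 3 bases before 1 of its listed starts. Searched on both strands of these windows, the NF-κB motif was present for 5 of 15 called higher genes with a listed promoter (33.3%: Ccrl2, Ier3, Nfkbia, Pde4b and Tnfaip3), and for 8.23% of all 27025 genes listed. The AP-1 motif was present for 2 of 15 (13.3%, Osgin1 and Tnfaip3) and for 7.82% of all genes. Of the 5 genes that chose the cells, Cxcl2 alone held the NF-κB motif. A match describes the letters and not binding, and several listed genes have more than 1 start.

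Levels of Nfkbia, Ccrl2, Ccl3, Tnfaip3 and Cxcr2 were also read by the number of the 5 chosen genes a restricted cell carried, as a description. In library 2, Nfkbia stood at 531 CPM in cells with 3, 1533 with 4 and 4092 with 5 of the genes. In library 3 the levels were 844, 1184 and 1657 CPM, and in library 1 they were 2097, 2414 and 3195 CPM. Ccrl2 stood at 84.7, 275 and 754 CPM in library 2 and at 80.6, 168 and 630 CPM in library 3, while in library 1 it was 966, 727 and 1304 CPM. Ccl3 stood at 64.7, 241 and 276 CPM in library 2, at 246, 215 and 205 CPM in library 3 and at 905, 1104 and 1182 CPM in library 1. Tnfaip3 stood at 24.5, 136 and 276 CPM in library 2, at 33.9, 86.0 and 103 CPM in library 3 and at 411, 281 and 690 CPM in library 1. Nfkbia was therefore higher at each step in all 3 libraries, Ccrl2 and Tnfaip3 in libraries 2 and 3, and Ccl3 in libraries 1 and 2. Cxcr2 went the other way in library 2, with 1046, 738 and 673 CPM for 3, 4 and 5 genes, and stood at 711, 598 and 630 CPM in library 3. The median depths differed little between these cells, at 3223, 3279.5 and 3294 UMIs in library 2 and 3106, 2929 and 2940 in library 3. In library 1 they rose, from 2234.5 to 2263 and 2465 UMIs, on 20, 61 and 118 cells.

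**Figure D4:**
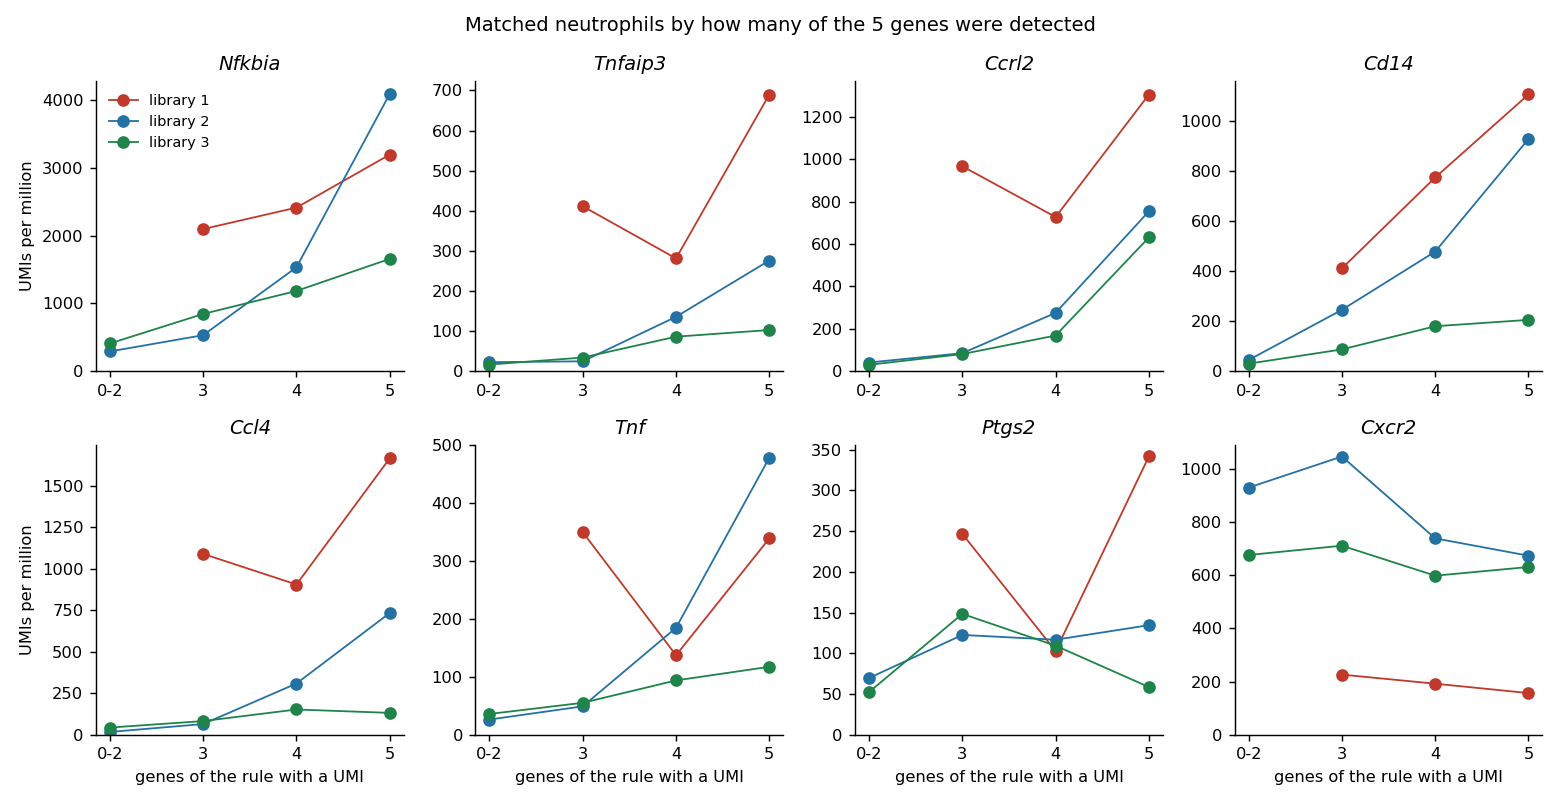
Level in CPM (linear axes from 0) of 8 genes in restricted neutrophils by the number of the 5 chosen genes with a UMI (0 to 2, 3, 4 or 5), with 1 line per library and library 1 shown for 3 to 5 only. Nfkbia climbs at each step from 3 to 5 genes in every library (531, 1533 and 4092 CPM in library 2), while Ptgs2 in library 3 (148, 109 and 58.6 CPM) and Cxcr2 do not.

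For some of the 5 chosen genes, detection was tied only loosely to detection of the other 4. Each gene was set against the other 4 in the restricted cells of libraries 2 and 3, as a description of the genes of the rule. Cxcl2 had a UMI in 85.6% and 91.8% of cells with 3 or 4 of the other genes, against 55.4% and 75.8% of cells with 0 to 2. For Acod1 the shares were 37.2% and 24.5% against 14.5% and 21.8%, and for Trem1 71.4% and 57.8% against 54.8% and 53.5%. For Il1b they were 60% and 62.1% against 57.3% and 55.0%, and for G0s2 67.9% and 53.9% against 60.7% and 51.7%. In library 1 only 12 to 24 restricted cells had 0 to 2 of the other genes, and there the shares were 97.8% against 91.7% for Cxcl2, 78.8% against 50% for Il1b, 89.7% against 80% for G0s2, 89.4% against 62.5% for Acod1 and 90.9% against 88.9% for Trem1.

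Activated cells were also compared with immature neutrophils of the same libraries, which passed the S100 gate but had at least 1% of UMIs from Camp, Ngp and Ltf (1537, 2500 and 2437 cells). By edgeR's quasi-likelihood test over 12504 genes with the library as a block, 1682 genes were higher in activated cells (13.5%) and 1617 lower (12.9%). Together these were 3299, against 1252 without library 3, 2166 with cells thinned to 1000 UMIs, 896 without the block and 5452 with the activated cells restricted as above, an alternative added after the data were seen. The higher genes included most chemoattractant and cytokine receptors and most feedback and interferon genes. The lower ones included most secondary and tertiary granule genes outside the rule and nearly all proliferation genes. Of 6 primary granule genes, 1 was higher and 1 lower. The secondary granule genes Camp, Ngp and Ltf split the 2 groups, so the secondary granule result was partly fixed by the gate. Here the activated cells were the shallower ones and carried more B lineage RNA, with 264, 729 and 666 CPM against 73.0, 199 and 248 CPM in immature cells, and more monocyte or macrophage RNA, with 96.1, 277 and 647 CPM against 23.8, 228 and 156 CPM. In this test, 5 of 8 B lineage and 4 of 12 monocyte or macrophage genes were themselves higher. With restricted activated cells, 6 of 8 B lineage genes and 9 of 12 monocyte or macrophage genes were instead lower, and 0 and 1 were higher. That restriction took out cells with 3 or more genes of either list on the activated side only. These counts were therefore partly fixed by it and say nothing on how such RNA weighed in the comparison. The median log2 fold change of all genes was then -0.54, and changes in that fit are relative to it.

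Among the named higher genes, Wfdc17 stood at 279, 462 and 743 CPM in activated cells against 4.96, 18.2 and 15.6 CPM (log2 fold change 4.90 ± 0.24, adjusted p = 4.2e-06). Ifitm1 stood at 247, 750 and 890 CPM against 12.7, 16.7 and 17.2 CPM (4.76 ± 0.24). Jaml, a junctional adhesion molecule used in migration, stood at 104, 210 and 154 CPM against 5.19, 5.05 and 4.32 CPM (4.56 ± 0.20). All 3 were higher in every library with no overlap, as were the chemokine Ccl6 (4.49 ± 0.13) and the class I-like gene H2-Q10 (4.44 ± 0.19), whose family holds near-identical copies between which reads may be split.

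The named lower genes included Chil3 and Orm1, and Cybb of the oxidase. Chil3, a chitinase-like secreted protein, stood at 218, 201 and 90.8 CPM in activated cells against 4993, 6560 and 5621 CPM (log2 fold change -5.57 ± 0.28, adjusted p = 4.3e-06). Orm1, an acute-phase glycoprotein, was counted with 8, 1 and 2 UMIs in all activated cells against 3428, 6381 and 4902 in immature cells (adjusted p = 1.05e-05). Cybb, the catalytic subunit of the phagocyte NADPH oxidase, stood at 157, 183 and 119 CPM against 1146, 1034 and 829 CPM (-3.14 ± 0.12). The prelamin protease gene Zmpste24 stood at 17.3, 10.8 and 12.6 CPM against 130, 128 and 122 CPM. Inhba, which encodes the activin A subunit, stood at 32.9, 4.19 and 1.14 CPM against 49.8, 70.1 and 58.8 CPM (-2.98 ± 0.64, adjusted p = 0.0096). Its call was lost without library 3 or without the library block, where the highest adjusted p was 0.14.

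By group, 20 of 24 chemoattractant and cytokine receptors were higher in activated than in immature cells and 1 was lower (median log2 fold change 1.27, against 0.03 over all genes). Cxcr2 stood at 100, 535 and 372 CPM in activated cells against 29.7, 68.3 and 60.1 CPM (2.06 ± 0.19, adjusted p = 9.94e-05). Csf3r stood at 442, 556 and 479 CPM against 75.8, 63.5 and 56.9 CPM (2.50 ± 0.13, adjusted p = 4.94e-06). The interferon list had 21 of 28 higher and none lower (median 1.33), with Isg15 at 71.0, 133 and 106 CPM against 13.7, 26.1 and 24.9 CPM. The NF-κB list had 14 of 22 higher and 1 lower, the immediate early list 17 of 23 higher, the feedback list 14 of 19 higher, the chemokines 6 of 10 higher and the cytokines 6 of 13 higher and 1 lower. The secondary and tertiary granule list had 5 of 20 higher and 13 lower, and the proliferation list 17 of 18 lower. With restricted activated cells the counts were 22 of 23 receptors, 24 of 28 interferon, 19 of 21 NF-κB, 20 of 23 immediate early, 17 of 19 feedback, 9 of 12 cytokine and 5 of 10 chemokine genes higher, and all 18 proliferation genes lower. Over all 11523 genes tested in that fit, 2221 were higher and 3231 lower. Its limits on primary granule RNA and on genes per cell applied to the activated side only. All calls of that fit rest on adjusted p-values far smaller than 3 pools can bear, so these counts are a description only. The secondary and tertiary granule list then had 9 of 20 higher and 7 lower, so its balance depended on which activated cells were summed.

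Of the genes described above, Cd14, called against marker-poor cells, missed the threshold against immature ones. It stood at 563, 265 and 82.8 CPM in activated cells against 465, 57.2 and 49.2 CPM in immature cells (log2 fold change 0.66 ± 0.29, adjusted p = 0.126). Tnf stood at 173, 94.7 and 40.6 CPM against 50.1, 33.4 and 44.3 CPM (adjusted p = 0.148). The groups of both genes overlapped. With restricted activated cells, Cd14 stood at 947, 435 and 127 CPM in them (log2 fold change 1.97) and Tnf at 282, 165 and 72.9 CPM (2.09). In that fit only the activated side was restricted. Its adjusted p-values were far smaller than 3 pools with levels this far apart can bear. Neither they nor calls from them are given for these genes. Nlrp3 stood at 752, 217 and 126 CPM against 40.9, 5.76 and 5.19 CPM (4.25 ± 0.19, adjusted p = 2.74e-06), and Ccrl2 at 661, 169 and 82.8 CPM against 48.2, 9.30 and 7.15 CPM (3.42 ± 0.16, adjusted p = 3.44e-06). The 2 comparisons share their activated cells, so they are not independent of each other.

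**Figure D5:**
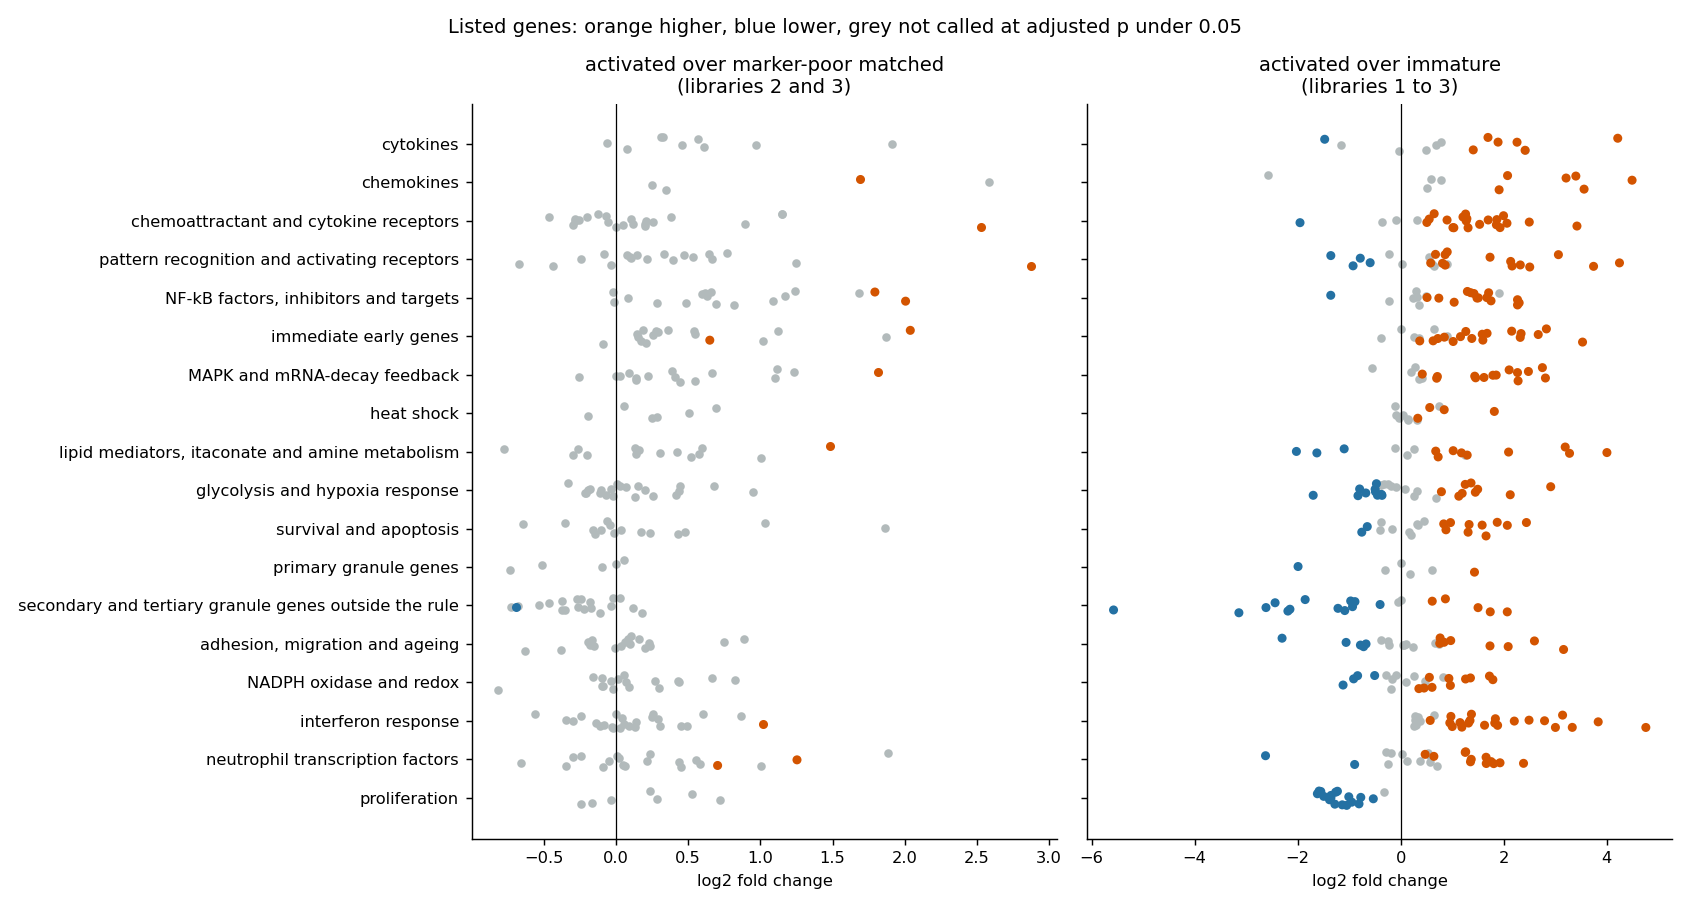
Log2 fold change of each listed gene (points) by gene list, in activated over marker-poor neutrophils (restricted cells, libraries 2 and 3) and in activated over immature neutrophils (3 libraries). The NF-κB list has medians of 0.66 and 1.33, the interferon list 0.06 and 1.33, and the proliferation list 0.24 and -1.24.

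Many listed genes, inflammatory ones among them, stood higher in library 1, both within activated cells and in other classes. Among restricted activated cells, 56 of 246 genes of the functional lists were over 2 times as high in library 1 as in each of libraries 2 and 3, and 13 were under 0.5 times both. The same counts were 84 of 341 and 9 in immature neutrophils, 54 of 334 and 14 in the monocyte gate, and 43 of 304 and 1 in B lineage cells. The share over all genes is not given, so these counts cannot be told from a shift over the whole library. With 1 library on 1 side there is no test. Ccl4 stood at 1395, 255 and 109 CPM in libraries 1, 2 and 3, Atf3 at 986, 208 and 167 CPM and Tnfaip3 at 547, 102 and 56.6 CPM. The ferritin heavy chain gene Fth1, which stores iron, stood at 44457, 13392 and 10953 CPM. The median ratio of library 1 to the mean of the other libraries was 5.85 over 3 chemokines, 2.48 over 17 NF-κB genes and 0.60 over 17 interferon genes. Lists of other kinds stood at 2.49 over 4 primary granule genes, 1.72 over 4 proliferation genes and 1.68 over 20 transcription factors. The ratio was 0.71 over 20 secondary and tertiary granule genes. Chemokine receptors moved in opposite ways, with Cxcr2 at 173, 887 and 667 CPM and Cxcr4, the receptor that holds neutrophils in the marrow, at 810, 243 and 126 CPM.

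Some of these genes were also higher in library 1 outside the activated cells. Atf3 stood at 89.8, 14.5 and 4.17 CPM in immature neutrophils, 287, 101 and 30.6 CPM in cells of the monocyte gate and 78.2, 34.3 and 7.27 CPM in B lineage cells of libraries 1, 2 and 3. Tnfaip3 and Ccl4 were likewise highest in library 1 in all 3 classes, whereas Fth1 stood at 7950, 1767 and 1509 CPM in immature neutrophils but at 2983, 4007 and 2753 CPM in the monocyte gate and 2018, 2218 and 2020 CPM in B lineage cells. Cxcl2 was 3.51 times the mean of the other libraries in activated cells, 8.27 times in immature neutrophils, 3.40 times in cells of the monocyte gate and 5.81 times in B lineage cells. The B lineage level was low throughout, at 20.9, 2.89 and 4.302 CPM. The median ratio over immediate early genes was 1.36 in activated cells, 1.99 in immature neutrophils, 2.32 in the monocyte gate and 1.99 in B lineage cells. Nfkbia, in contrast, stood at 1817, 925 and 627 CPM in activated cells and at 330, 252 and 335 CPM in B lineage cells. Pool, digestion, sequencing batch and processing version were confounded with the library and cannot be told apart.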

How the data were processed

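The 3 deposited matrices hold counts, whole numbers of UMIs per gene and barcode without normalization, made by the authors with Cell Ranger; the submitters' processing notes name Cell Ranger 3.0.2, Seurat 4 and mm10, while per the file headers the versions differ between library 1 and libraries 2 and 3. How the reads were aligned and filtered is otherwise not given in the sources used here. The 30406 gene IDs shared by the 3 matrices were used. The members and the gene lists were chosen with earlier results of these data known.

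Kept barcodes had 500 genes or more and mitochondrial UMIs of 15% or less. No doublets were removed in the reported values; removing the highest Scrublet scores (scanpy 1.11.5) at 0.8% per 1000 barcodes was an alternative. Software was Python 3.11.15, pandas 2.3.3, scipy 1.17.1 and numpy 2.4.6. The B lineage and monocyte gates asked for at least 3 genes of the list, under 3 of the other and S100 genes under 2%. UMIs were summed per library and class, a library entering with at least 20 cells in both sums, and tested with edgeR 4.0.16 in R 4.3.3 (filterByExpr, TMM, quasi-likelihood, limma 3.58.1). The library was the replicate block, as the 2 sums per library came from 1 pool. The test gives no SE, so the SE is the absolute log2 fold change over the square root of its F statistic. CPM are UMIs per 1000000 UMIs of a sum, so low values rest on few UMIs. DESeq2 1.42.0 was an alternative. The fits were tested on simulated data.

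Named genes were, over the whole gates, the 10 highest and 10 lowest by log2 fold change of the called genes that moved alike in every library with at least 50 CPM in the higher group, and up to 2 members called each way of each of 18 lists. Against immature cells they were the 5 highest and 5 lowest. The 10 genes of the rule stayed in the fits and in the adjustment, but are not counted among the calls. The text prints part of these names. The comparison of restricted cells, its alternatives, the restriction of activated cells alone and the omission of shared barcodes were added after the data were seen. Exact Clopper-Pearson intervals are at 95%.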

Additional observations from a re-analysis of the deposited data

How the results depend on the processing

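Without the replicate block of the library, 2714 genes were called over the whole gates, 896 against immature cells and 3 in the restricted comparison, in place of 4312, 3299 and 20. Thinning every cell to 1000 UMIs left 1003 and 2166 calls in the first pair and 23 in the restricted comparison. Over the whole gates, comparison cells with 0 of the 5 genes gave 2268 calls. Leaving out each library in turn gave 1973 to 4629 calls over the whole gates, lowest without library 2 (without library 3, 2360), and 1252 to 4219 against immature cells, lowest without library 3. In the restricted comparison DESeq2 called 12 genes, leaving the rule genes out of the totals 5, no filter on low counts 149, at least 10 UMIs in every sum 83, at least 4 of 5 genes 43, omitting barcodes shared between libraries 65, including library 1 84 and a limit of 1500 genes per cell 68. Restricting the activated cells alone gave 5452 calls against immature cells, and over the whole gates the small heat shock gene Hspb1 then reversed, to a log2 fold change of -2.68. The causes were not tested. Leaving out library 2 or 3 could not be fitted there, since 1 library would remain, nor could comparison cells with 0 of the genes.

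The mean share of activated cells among gated cells, 52.0%, was 74.0% with at least 2 of the genes, 33.5% with at least 4, 31.4% with at least 1000 genes per barcode, and 41.1% to 58.2% with 1 library left out. With cells thinned to 1000 UMIs it was 64.1%, 21.2% and 16.6% in libraries 1, 2 and 3. Among restricted cells the share, 69.7%, was 45.9% with at least 4 genes and 56.1% to 76.9% with 1 library left out. No other named gene reversed in any alternative. The part of depth in the shares was not tested by itself. Over the whole gates, activated cells had median depths of 2358, 3454 and 3235 UMIs. Gated cells with 0 to 2 of the genes had 22745.5, 5460 and 9127. In library 1 the restricted comparison has 6 marker-poor cells.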
